A study of Mus musculus with 14 samples.

Results

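A set of 40 genes of DNA replication and S phase, the stretch of the cell cycle in which the genome is copied, was followed through sorted epithelial cells of mouse skin. The genes were chosen by name, and all 40 were found among the 22033 gene symbols of the deposited tables. All 40 were among the 12470 genes tested. All mice were wild type C57BL/6, either 2 or 24 months old, and RNA was made from cells of the dorsal skin. Cells were isolated by flow cytometry, and 12 libraries in 6 groups of 2 are used here. Telogen bulge libraries hold stem cells of the hair follicle bulge from resting skin, epidermis libraries hold interfollicular epidermis of the same resting skin stage, and activated bulge libraries hold bulge stem cells from depilated skin, a treatment that sets off a new hair cycle. Each population was taken at both ages, no sex is given, and the labels name no time after depilation. Nothing in them ties the 2 libraries of a group to different animals, and the spread that p-values rest on may therefore be technical.

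DNA replication starts at origins, where the proteins Cdc6 and Cdt1 load a ring of Mcm subunits in G1 and kinases then switch that ring on as a helicase. Polymerases copy the separated strands around the sliding clamp Pcna, while ribonucleotide reductase and thymidylate enzymes supply the building blocks. Many of these genes are known targets of E2F transcription factors, which RB-family proteins hold back in resting cells, and bulge stem cells are known to rest for most of the hair cycle while basal cells of the epidermis keep dividing.

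The promoters of some of the genes hold words of the kind that E2F proteins bind. Of these, 6 with a word upstream of the start site are shown so that it can be seen in its setting. Of these 6 genes, Mcm5, Mcm6, Cdc6 and Pola1 were called higher on activation at both ages (values below), and Mcm7 and Rfc3 at neither. Brca2, with an upstream word that is not printed, was also called at neither. Genes with no word in their windows were called at both ages too, such as Tk1, Rrm2 and E2f1. Rfc4, Rfc5 and Rpa2, also without a word, were called at neither. Whether words go with calls was not tested. RefSeq promoter windows on GRCm38.p6, from 250 bases before to 50 bases after a start site, were matched by symbol for 33 of the 40 genes. Mcm4, Gmnn, Pole, Ccne2, Gins2, Gins1 and Exo1 were not matched. The 3 words searched on both strands were TTTCCCGC, TTTCGCGC and TTTGGCGC, which can overlap one another on opposite strands. At least 1 of them stood in the windows of 12 of the 33 genes (36.36%), against 2.12% of 27025 genes with a window. Member windows also had more G and C, with a median of 57.67% against 52.67% over all windows. Below are the 180 bases before the start site, 5′ to 3′ on the gene's strand, with the words in capitals on whichever strand they read. They lie at chr8:75109329-75109508 (plus strand) for Mcm5, chr1:128359706-128359885 (minus) for Mcm6, chr5:138171884-138172063 (minus) for the more upstream start of Mcm7, chr11:98907971-98908150 (plus) for Cdc6, chrX:93632156-93632335 (minus) for Pola1 and chr5:151651209-151651388 (minus) for Rfc3.
Mcm5: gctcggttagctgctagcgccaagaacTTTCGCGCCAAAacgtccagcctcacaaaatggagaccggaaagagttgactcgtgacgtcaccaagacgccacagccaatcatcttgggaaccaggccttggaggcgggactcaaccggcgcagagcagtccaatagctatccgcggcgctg
Mcm6: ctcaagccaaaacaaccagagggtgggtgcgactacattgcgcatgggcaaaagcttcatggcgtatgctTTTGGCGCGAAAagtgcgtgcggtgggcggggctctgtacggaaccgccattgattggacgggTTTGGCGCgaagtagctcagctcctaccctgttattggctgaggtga
Mcm7: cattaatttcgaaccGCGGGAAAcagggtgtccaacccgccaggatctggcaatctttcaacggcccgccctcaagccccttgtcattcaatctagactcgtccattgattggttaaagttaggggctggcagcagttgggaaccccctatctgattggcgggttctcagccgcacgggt
Cdc6: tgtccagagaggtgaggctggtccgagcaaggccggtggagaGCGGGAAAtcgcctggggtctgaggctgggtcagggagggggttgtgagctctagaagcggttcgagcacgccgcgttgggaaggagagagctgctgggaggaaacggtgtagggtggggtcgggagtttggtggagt
Pola1: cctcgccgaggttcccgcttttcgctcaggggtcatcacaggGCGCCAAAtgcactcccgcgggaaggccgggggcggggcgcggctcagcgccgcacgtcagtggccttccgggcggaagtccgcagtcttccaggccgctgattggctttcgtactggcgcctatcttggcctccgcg
Rfc3: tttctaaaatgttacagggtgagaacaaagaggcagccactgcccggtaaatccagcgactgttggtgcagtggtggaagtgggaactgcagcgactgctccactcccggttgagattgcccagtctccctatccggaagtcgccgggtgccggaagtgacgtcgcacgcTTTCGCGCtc
Mcm5 and Mcm6, subunits of the Mcm ring, each carried a pair of words that overlap on opposite strands, starting 153 and 149 bases before the start site in Mcm5 and 110 and 106 bases before it in Mcm6, and Mcm6 had a further word at 47 bases. In the promoter window of the clamp loader gene Rfc3 a word began 10 bases before the start site. Cdt1, E2f2, Lig1, Mcm3 and Pold1 had words only after the start site, and Brca2 had 1 word 168 bases before it. The other words searched were nearer to their general share: CCAAT stood in 54.55% of the 33 genes and 41.06% of all, GGGCGG in 69.7% and 38.2%, TATAAA in 9.091% and 15.67%, and TTTGAA in 18.18% and 20.23%. A match is a description of letters, and no binding was measured.

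Depth was estimated at 21.7 to 43.2 M fragments per library. Values are FPKM, which divides fragments by transcript length and by library size, so levels can be compared between genes per length, and ± is the SD over 2 libraries. The deposited scale was not equal over libraries, at an estimated 12505 to 18480 times the usual FPKM. All were divided by 1 constant, so these inequalities stayed in the values. For epidermis at 2 months the scale was 18383 in replicate 1 and 14189 in replicate 2. Differences are on the log2(FPKM + 1) scale, which understates the change of low genes, and a gene is called at an adjusted p under 0.05 by limma with Benjamini-Hochberg adjustment over all genes tested. Bulge markers followed the labels in part: Cd34, a surface protein of bulge cells, was at 946 to 1306 FPKM in the 4 telogen bulge libraries, 0.384 to 5.76 in epidermis and 59.1 to 92.1 in the activated libraries, and the bulge transcription factor Tbx1 was at 132 to 191, 0.637 to 1.47 and 88.2 to 147 FPKM. Over all 10 bulge markers the sum was 15919 to 18186 FPKM in telogen bulge, but 3062 to 3709 in activated bulge, within the 2903 to 5823 of epidermis. The median of the 10, which single high genes do not set, was 95.8 to 129 FPKM in telogen bulge. It was 66.3 to 84.3 in activated bulge and 1.25 to 3.62 in epidermis. Ly6a, a marker of interfollicular epidermis, was at 607 to 1175 FPKM in epidermis, 21.6 to 71.2 in telogen bulge and 6.83 to 65.1 in activated bulge, while the 7 basal markers summed to 2163 to 20316, 5232 to 7061 and 9356 to 24834 FPKM, with 1 or 2 of them listed at 0 in 7 of these libraries. The 6 fibroblast markers summed to 15.8 to 17.3 FPKM in telogen bulge and 0.122 to 0.63 in epidermis, but to 428, 9.47, 32.6 and 7.02 in the activated libraries (replicates 1 and 2 at 2 months, then at 24 months), and the 6 suprabasal markers to 10907, 982, 6407 and 2213. The 8 Langerhans and myeloid markers summed to 116 to 130 FPKM in telogen bulge, 84.3 to 140 in epidermis and 137 to 339 in activated bulge, and the part of other cells in the results was not tested. The 6 T cell markers summed to 4.91 to 15.9 FPKM and the 5 endothelial markers to 0.0677 to 3.99 over the 12 libraries. Xist, made from the silent X chromosome of female cells, was at 15.8 to 141 FPKM in the 4 activated libraries and 0 to 0.281 in the other 8, and the Y-linked Eif2s3y at 0.0375 to 0.137 and 18 to 48.7 FPKM. The activated libraries thus differ from all others in these sex-linked RNAs too, and the parts of that split and of activation in the differences below cannot be told apart.

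The 40 genes were lowest in resting bulge cells and highest, for most of them, in activated bulge cells of young mice. Their median level was 7.31 FPKM in telogen bulge at 2 months and 7.22 at 24 months, 20.7 and 20.4 in epidermis, and 28.4 and 23.4 in activated bulge. Pcna, the sliding clamp, had the highest level in each of the 6 groups, and Exo1, Brca2 or Cdc6 the lowest. The library with the highest value belonged to activated bulge at 2 months for 30 genes, to epidermis at 2 months for 7, to epidermis at 24 months for 2 and to activated bulge at 24 months for 1. The lowest library belonged to telogen bulge at 24 months for 23 genes, to telogen bulge at 2 months for 13 and to epidermis at 2 months for 4, the clamp loader genes Rfc3, Rfc4 and Rfc5 and the single-strand binding gene Rpa2. No gene was listed at 0 in any library.

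**Figure D1:**
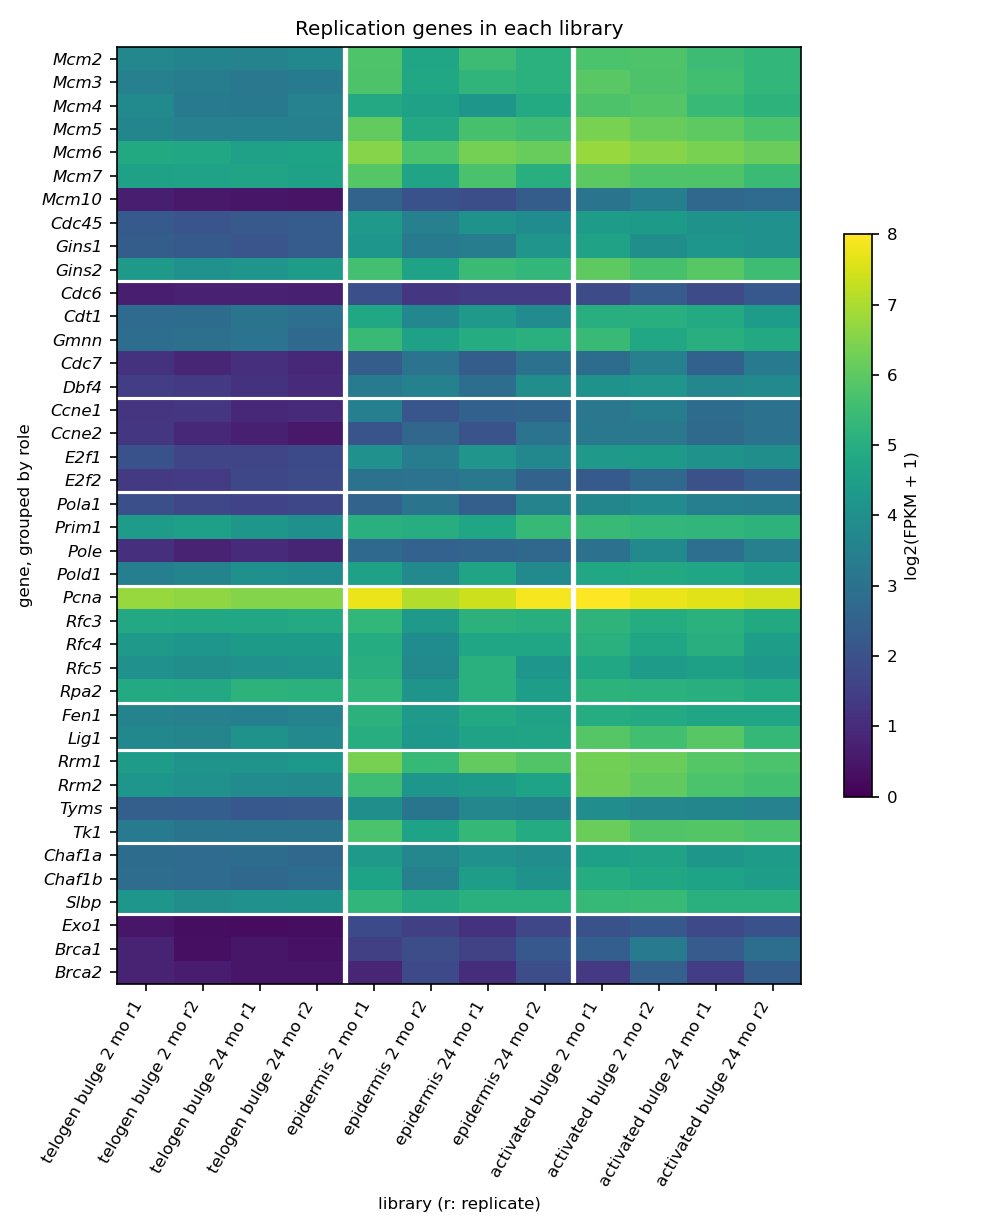
Heat map of log2(FPKM + 1) for the 40 replication genes (rows, grouped by role, white lines between roles) in the 12 libraries (columns, r1 and r2 are replicates, white lines between populations). The 4 telogen bulge columns are darkest for nearly all rows, the rows of Rfc3, Rfc4, Rfc5 and Rpa2 change little, and Pcna is the brightest row, at 90.3 to 255 FPKM.

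Low levels limit some of these values. Mcm10, Cdc6, Exo1, Brca1 and Brca2 were under 1 FPKM in all 4 telogen bulge libraries and entered the tests through the other groups, so their call as low there was partly set by the filter. In 7 genes at least 1 library rested on fewer than 100 estimated fragments, with 39 for Exo1 as the lowest.

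Bulge cells of depilated skin were first compared with those of resting skin at 2 months. All 40 genes had higher values in both activated libraries than in both telogen libraries, where 29.2% of all genes tested did not overlap in that direction and 35.6% in the other, and 33 of the 40 were called higher and 0 lower, against 12.8% of all genes called (6.6% higher and 6.18% lower). Without the 5 genes under 1 FPKM in telogen bulge, 29 of 35 were called. The median difference was 1.97 on the log2 scale, against -0.07 over all genes, and the median ratio of group means was 4.73. In bulk RNA, fewer cells of a type and less RNA per cell cannot be told apart. At 24 months 31 of 40 were called higher and 0 lower, against 8.01% of all genes (4.11% higher and 3.91% lower), with a median of 1.68 against -0.10 over all genes, and 30 genes were called at both ages. There 38 genes did not overlap in the higher direction (31.3% of all genes) and 1, Rpa2, in the lower (39.3%). Without the activated library with 428 FPKM of fibroblast markers, replicate 1 at 2 months, 31 of 40 were called at 2 months with a median of 1.88, so the count was nearly as large without it. The count fell strongly at 2 months without replicate 2 of telogen bulge. It also fell strongly at 24 months without either telogen or either activated library of that age. In all of these fits the median stayed between 1.67 and 1.86.

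**Figure D2:**
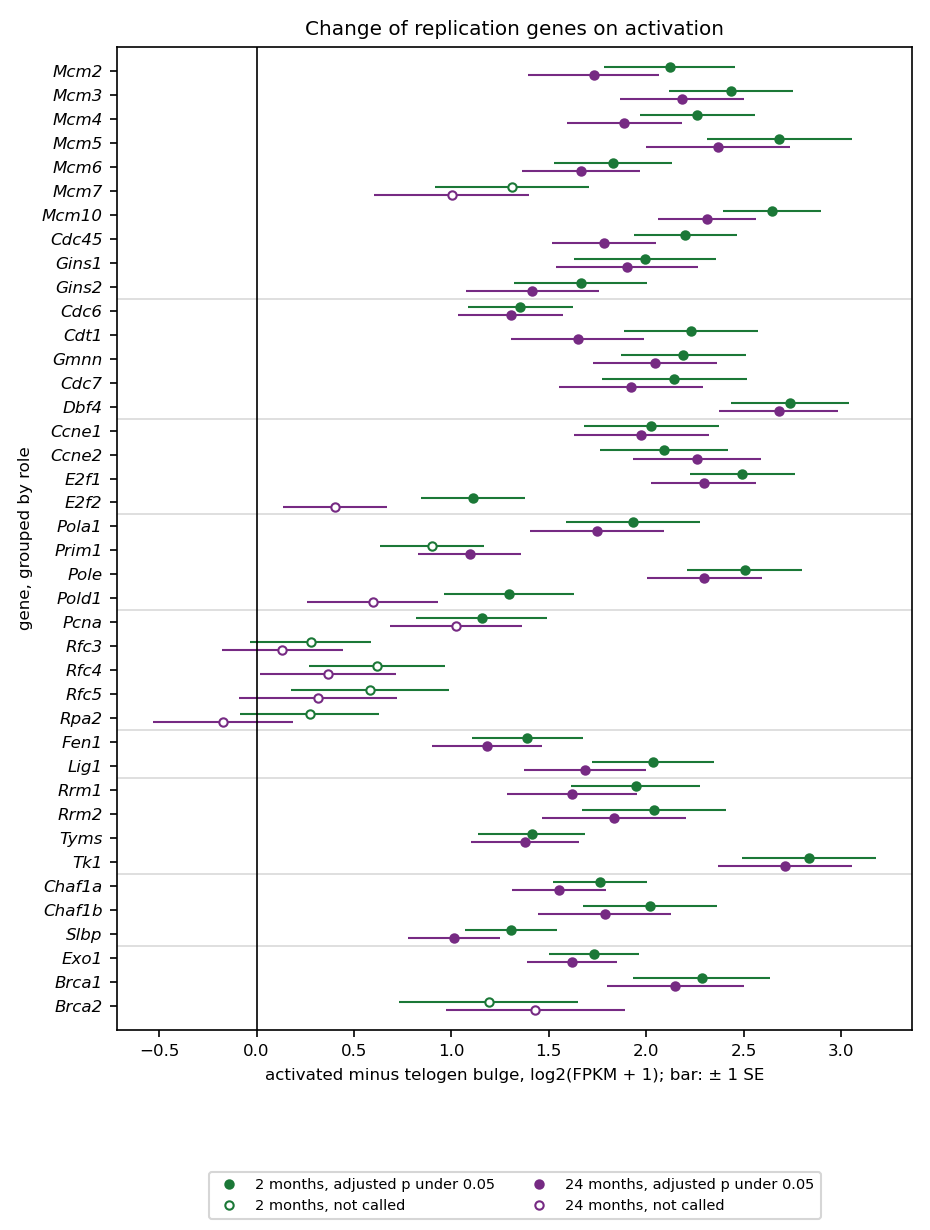
Difference between activated and telogen bulge in log2(FPKM + 1) for each of the 40 genes, grouped by role, at 2 months (green) and 24 months (purple), with bars of 1 SE either side and filled points for an adjusted p under 0.05. Differences reach 2.84 for Tk1, and the 4 genes Rfc3, Rfc4, Rfc5 and Rpa2 lie nearest to 0 with open points at both ages.

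The replicative helicase rose nearly as a whole. Of its 10 genes, 9 were called higher at each age, with medians of 2.16 at 2 months and 1.84 at 24 months. Mcm10, which helps the helicase start to unwind and lies on chromosome 2 at 4911770 to 4933837 (mm9), was at 0.608 and 0.468 FPKM in telogen bulge at 2 months, 0.391 and 0.332 at 24 months, 4.86, 3.02, 2.79 and 4.14 in epidermis in the same order (young replicates 1 and 2, followed by aged replicates 1 and 2, here and below), and 7.44, 9.99, 5.55 and 5.96 in activated bulge. The populations formed 3 separate levels in it. It had the smallest p of the 40 genes at both ages, a log2 change of 2.65 (SE 0.25, limma adjusted p = 0.000283) from 0.538 ± 0.099 to 8.72 ± 1.81 FPKM at 2 months and of 2.31 (SE 0.25, adjusted p = 0.000519) at 24 months.

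Mcm5, a ring subunit whose promoter is printed above, was at 11.8, 10.1, 10.5 and 10.2 FPKM in telogen bulge, 66.8, 27.2, 49.9 and 44.0 in epidermis and 82.7, 69.3, 63.7 and 52.3 in activated bulge. The 4 telogen values lay close together, whereas replicate 1 of epidermis at 2 months was far above replicate 2. Mcm5 rose by 2.68 (SE 0.37, limma adjusted p = 0.00154) at 2 months. Among the 6 ring subunits, which assemble in equal numbers, group means ran from 9.72 FPKM (Mcm3) to 27.3 (Mcm6) in telogen bulge at 2 months and from 53.8 (Mcm2) to 99.6 (Mcm6) in activated bulge. Mcm7 was the helicase gene not called, at 22.9, 23.3, 24.6 and 22.8 FPKM in telogen bulge and 62.7, 55.2, 55.1 and 42.5 in activated bulge, a difference of 1.31 (SE 0.40, adjusted p = 0.056) at 2 months and 1 (adjusted p = 0.145) at 24 months. Its activated libraries were all above its telogen libraries, but its epidermis values spread from 24.5 to 59.0 FPKM. Of the other subunits, Cdc45 and the GINS genes Gins1 and Gins2, which join the ring to make it active, rose by 2.20, 1.99 and 1.67 at 2 months.

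The genes that license and fire origins were called higher at both ages, 5 of 5. Dbf4, the regulatory subunit that activates the kinase Cdc7, was at 1.74, 1.54, 1.26 and 0.947 FPKM in telogen bulge, 8.77, 10.5, 6.45 and 14.3 in epidermis and 16.3, 17, 12.1 and 12.8 in activated bulge. Telogen values were the lowest by far and did not come near the others. Its change was 2.74 at 2 months (SE 0.30, limma adjusted p = 0.000519) and 2.68 at 24 months (SE 0.30, adjusted p = 0.00066), with group means of 1.64 ± 0.14 and 16.6 ± 0.51 FPKM at 2 months. Dbf4 has 2 annotated transcripts of nearly the same length, 2441 and 2444 nt. The second was given 98.3% of the summed FPKM in activated bulge at 2 months and 47.2% in telogen bulge. There the whole gene rested on 150 and 128 estimated fragments in replicates 1 and 2. The split between the transcripts was not tested, and no change of transcript is read from it. Cdt1, the loader of the Mcm ring, was at 5.94, 6.13, 7.44 and 6.55 FPKM in telogen bulge, 26.8, 12.4, 19.3 and 13.6 in epidermis and 32.2, 31.9, 28.5 and 20.2 in activated bulge. Its inhibitor geminin (Gmnn) rose with it, by 2.19 at 2 months and 2.05 at 24 months, beside 2.23 and 1.65 for Cdt1. Cdc6 had the smallest difference of the 5 on the log2(FPKM + 1) scale, 1.35 and 1.30, from a level under 1 FPKM. By ratio of group means it was lowest of the 5 at 2 months (5.09) but at their median at 24 months (4.83, lowest 3.48).

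Cyclin E and E2F genes act ahead of replication, cyclin E with its kinase Cdk2 and E2F1 as a transcription factor of S-phase genes. Of these 4 genes, 4 were called higher at 2 months and 3 at 24 months. E2f1 was at 3.01, 2.19, 2.22 and 2.46 FPKM in telogen bulge, 15.7, 9.42, 16.9 and 12.3 in epidermis and 18.6, 19.7, 16 and 14.7 in activated bulge. Its telogen values were separate from all others, and it rose by 2.49 (SE 0.27, limma adjusted p = 0.000484) and 2.29 (SE 0.27, adjusted p = 0.000826). Ccne2 was at 1.42, 0.88, 0.636 and 0.464 FPKM in telogen bulge, 3.23, 5.3, 3.18 and 7.3 in epidermis and 8.24, 7.93, 5.78 and 7.11 in activated bulge, where the last 2 populations overlap at 24 months. E2f2 had another order of levels. It was at 1.57, 1.64, 2.33 and 2.52 FPKM in telogen bulge, 6.95, 7.28, 8.14 and 4.86 in epidermis and 3.76, 5.66, 2.96 and 4.2 in activated bulge. Epidermis thus held its highest values at each age. E2f2 was called on activation at 2 months (1.11, adjusted p = 0.0238) and not at 24 months (0.41, adjusted p = 0.342), and the difference between ages was -0.71 (SE 0.38, adjusted p = 1).

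Polymerase and primase genes were called for 3 of 4 at each age. Pole, the catalytic subunit of the leading-strand polymerase, was at 1.11, 0.695, 0.997 and 0.786 FPKM in telogen bulge, 5.67, 4.73, 5.08 and 5.39 in epidermis and 7.14, 13.2, 6.64 and 10.3 in activated bulge. All telogen values were near 1 FPKM, and Pole rose by 2.51 and 2.30. The catalytic subunit of the primase-polymerase complex, Pola1, was at 2.86, 2.29, 2.06 and 2.33 FPKM in telogen bulge, 4.84, 7.45, 4.36 and 11 in epidermis and 11.8, 13.5, 10 and 9.46 in activated bulge. Pola1 lies on the X chromosome, which is the one that differs in number between the sexes, and it rose by 1.93 and 1.75. The primase subunit Prim1, at 20.1, 21.9, 17.8 and 15.2 FPKM in telogen bulge and 41.4, 38.7, 37.4 and 35.2 in activated bulge, had differences of 0.90 at 2 months (adjusted p = 0.0517) and 1.09 at 24 months (adjusted p = 0.0343), so only the larger was called. Pold1, the catalytic subunit of the lagging-strand polymerase, had the reverse: 10, 11.2, 15.1 and 13.8 FPKM in telogen bulge and 26.6, 28.3, 24.8 and 20.1 in activated bulge, with 1.30 (adjusted p = 0.0323) and 0.60 (adjusted p = 0.273). Neither gene's activated libraries overlapped its telogen libraries.

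The clamp, clamp loader and single-strand binding genes had the smallest median difference of the 9 roles, with 1 of 5 called at 2 months and 0 of 5 at 24 months and medians of 0.58 and 0.31. Pcna was at 109, 101, 91.4 and 90.3 FPKM in telogen bulge, 216, 133, 168 and 234 in epidermis and 255, 217, 199 and 174 in activated bulge. It roughly followed the common order of the populations, with 1.16 at 2 months (adjusted p = 0.0499) and 1.02 at 24 months (adjusted p = 0.0916). The loader subunits that open the clamp were already abundant in resting cells. Rfc3 was at 27.3, 26.5, 26.9 and 28.9 FPKM in telogen bulge, 38.0, 19.2, 34.4 and 31.6 in epidermis and 35.7, 30.2, 33.3 and 28.2 in activated bulge. Rfc4 was at 19.3, 17.5, 19.6 and 19.6 in telogen bulge, 29.7, 14, 24.8 and 25.5 in epidermis and 32.9, 25, 31.5 and 20.7 in activated bulge. For both, replicate 2 of epidermis at 2 months was the lowest of the 12 libraries. Rfc5 was at 15.4, 14.6, 15.7 and 16.7 FPKM in telogen bulge and 26.1, 20.2, 22.4 and 18.4 in activated bulge. Rpa2, a subunit of the complex that coats single-stranded DNA, was at 28.5, 27.6, 35 and 33.5 FPKM in telogen bulge, 37.6, 16.8, 32.9 and 21.4 in epidermis and 34.9, 33.2, 32.3 and 28.4 in activated bulge. Rpa2 and Rfc3 had the largest p of the 40 genes at both ages. The difference of Rpa2 was 0.27 (SE 0.36, 95% interval -0.52 to 1.07, limma adjusted p = 0.636) and -0.17 (SE 0.36, -0.97 to 0.62, adjusted p = 0.765; 0.08 with quantile normalization and 0.31 with equal library totals), and that of Rfc3 was 0.28 (SE 0.31, -0.41 to 0.97, adjusted p = 0.573) and 0.13 (SE 0.31, -0.56 to 0.83, adjusted p = 0.793). These intervals leave out a change as large as the median of the 40 genes at each age.

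Genes for joining lagging-strand fragments and for building blocks were called without exception, 2 of 2 and 4 of 4 at each age. Lig1, the ligase of those fragments, was at 12.4, 11.5, 15.8 and 12.7 FPKM in telogen bulge, 30.8, 18.3, 23.4 and 24.7 in epidermis and 58.4, 46.6, 59.1 and 38.8 in activated bulge. The flap nuclease Fen1, at 10.9, 10.2, 9.95 and 10.9 FPKM in telogen bulge, was at 34.4, 18.7, 27.9 and 23.7 in epidermis and 30.3, 28.4, 25.1 and 24.8 in activated bulge. In Lig1 the activated libraries were above every epidermis library, while in Fen1 those populations overlapped. Lig1 rose by 2.04 and 1.69, and Fen1 by 1.39 and 1.18.

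Tk1, thymidine kinase of S-phase cells, had the largest difference of the 40 genes on the log2(FPKM + 1) scale at both ages. It was 2.84 (SE 0.34, limma adjusted p = 0.000793) and 2.71 (SE 0.34, adjusted p = 0.00123). By ratio of group means Tk1 was not the largest, at 7.95 and 7.31 against 16.2 and 15.9 for Mcm10. Tk1 was at 8.53, 7.54, 7.42 and 7.48 FPKM in telogen bulge, 51.9, 24.1, 39.5 and 29.1 in epidermis and 71.8, 55.9, 56.8 and 52.1 in activated bulge. Rrm2, the regulated subunit of ribonucleotide reductase, was at 17.3, 15.5, 13.4 and 12.9 FPKM in telogen bulge, 44.4, 17.6, 19.6 and 24.1 in epidermis and 76.0, 65.2, 51.8 and 47.0 in activated bulge. The activated libraries of Rrm2 lay above all others, and 3 of 4 epidermis libraries lay nearer to the telogen level. Its partner subunit Rrm1 rose by 1.95 and 1.62, and thymidylate synthase (Tyms) by 1.41 and 1.38.

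Chromatin assembly and histone mRNA genes were called for 3 of 3 at both ages. Chaf1a, the large subunit of the factor that deposits histones behind the fork, was at 6.04, 5.90, 6.14 and 5.39 FPKM in telogen bulge, 18.5, 11.9, 15.4 and 14.2 in epidermis and 21.7, 23.7, 17.9 and 19.8 in activated bulge. Chaf1b, its partner, was at 6.33, 5.90, 5.37 and 6.10 FPKM in telogen bulge, 24.1, 10.3, 21.1 and 15.8 in epidermis and 29.8, 26.0, 23.9 and 20.7 in activated bulge. The 2 partners had nearly the same level in resting bulge, and they rose by 1.76 and 2.02 at 2 months. Slbp, which binds histone mRNA, rose by 1.31 and 1.01.

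Of the 3 genes of repair by recombination, 2 were called at each age. Brca1 was at 0.698, 0.252, 0.412 and 0.315 FPKM in telogen bulge, 1.87, 2.69, 1.94 and 3.58 in epidermis and 4.26, 8.60, 3.91 and 6.45 in activated bulge. The nuclease Exo1 was at 0.397, 0.224, 0.189 and 0.219 FPKM in telogen bulge, 2.5, 1.88, 1.27 and 2.24 in epidermis and 3.09, 3.61, 2.40 and 3.02 in activated bulge. Both were separate between resting and activated bulge, with ratios of group means of 13.5 and 10.8 at 2 months. Brca2, which acts in recombination repair and has the longest transcript of the 40 at 10727 nt, was at 0.706, 0.533, 0.399 and 0.402 FPKM in telogen bulge, 0.832, 2.42, 1.06 and 2.69 in epidermis and 1.5, 4.48, 1.76 and 4.16 in activated bulge. Replicate 2 was above replicate 1 in each epidermis and activated group, and the difference was not called at either age (adjusted p = 0.115 and 0.086). Differences between the 2 libraries of a group went with transcript length to unequal degrees. Over all genes the Spearman correlation of length with replicate 2 minus replicate 1 was 0.54 in activated bulge and 0.53 in epidermis at 2 months, and over the 40 genes 0.71 and 0.49. At 24 months it was 0.47 and 0.23 over all genes and 0.46 and 0.16 over the 40, and in telogen bulge it was -0.30 and 0.10 over all genes and -0.26 and -0.07 over the 40 at the 2 ages. These are correlations across genes within pairs of libraries, and genes are not independent replicates. Its part in the calls was not tested.

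Resting bulge cells were next compared with epidermis of the same skin stage and age. At 2 months 27 of the 40 genes were called lower in telogen bulge and 0 higher, against 20.1% of all genes called (13% higher and 7.15% lower), with a median of -1.22 against 0.18 over all genes. At 24 months the counts were 29 and 0, against 20.5% (12.8% higher and 7.74% lower), with a median of -1.28 against 0.12. Groups did not overlap for 36 genes at 2 months, all lower in telogen bulge (21.6% of all genes, and 36.8% higher), and at 24 months for 38 lower (27.9%) and 1 higher (40.9%), which was Rpa2. Leaving out the 5 genes under 1 FPKM in telogen bulge left 23 of 35 and 26 of 35. E2f1, Mcm10 and Dbf4 had the smallest p at both ages, with differences of -1.88 (SE 0.27, limma adjusted p = 0.000826), -1.66 (SE 0.25, adjusted p = 0.00113) and -2 (SE 0.30, adjusted p = 0.00113) at 2 months. At 24 months they had -2.21 (SE 0.27, adjusted p = 0.000284), -1.70 (SE 0.25, adjusted p = 0.000932) and -2.35 (SE 0.30, adjusted p = 0.000394). Licensing genes were called for 5 and 4 of 5 and cyclin E and E2F genes for 4 and 4 of 4, but clamp, loader and single-strand binding genes for 0 and 1 of 5. Rpa2 was the gene with a positive difference, 0.15 (adjusted p = 0.823, and -0.06 with equal library totals) and 0.35 (adjusted p = 0.549), and Rfc3 had -0.01 (SE 0.31, adjusted p = 0.987) at 2 months. The largest p at 24 months were those of Pold1 (-0.31, SE 0.33, adjusted p = 0.578) and Rfc3 (-0.24, SE 0.31, adjusted p = 0.657). Both comparisons share their telogen libraries with those of activation, so the 2 sets of values are not independent. The count was 15, 11 and 17 at 2 months without replicate 1 or 2 of telogen bulge or replicate 1 of epidermis, and 16 and 15 at 24 months without replicate 1 or 2 of telogen bulge.

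Activated bulge and epidermis differed less. Medians were 0.55 at 2 months, against 0.12 over all genes, and 0.28 at 24 months, against 0.04. At 2 months 4 of 40 were called higher and 0 lower, against 12.7% of all genes (9.12% higher and 3.54% lower), a share near that of all genes. They were Mcm10 (0.99, SE 0.25, limma adjusted p = 0.0279), Mcm4, a ring subunit (1.12, SE 0.30, adjusted p = 0.0336), Lig1 (1.10, SE 0.31, adjusted p = 0.0448) and Rrm2 (1.30, SE 0.37, adjusted p = 0.0457). The largest p were those of Gmnn (0.12, SE 0.32, adjusted p = 0.875) and Rfc5 (0.13, SE 0.41, adjusted p = 0.893). Groups did not overlap for 23 genes higher (27.5% of all genes) and 1 lower, E2f2 (12.2%). At 24 months 0 were called, against 12.6% of all genes (8.4% higher and 4.19% lower), and 6 had an unadjusted p under 0.05, led by Rrm2 (1.15, SE 0.37, adjusted p = 0.075) and Lig1 (0.97, SE 0.31, adjusted p = 0.0763), then E2f2 with -0.69 (SE 0.27, adjusted p = 0.146). Rfc4 (0.02, adjusted p = 0.984) and Slbp (-0.01, adjusted p = 0.987) had the largest p. With quantile normalization Rrm2 and Lig1 were called at 24 months (adjusted p = 0.0186 and 0.00395), and Mcm10 was not called at 2 months (adjusted p = 0.107). With the replicate number as a block the counts were 5 at 2 months and 2 at 24 months. At 24 months 15 genes did not overlap in the higher direction (26% of all genes) and 2 in the lower (17.5%). The 2-month count was 0 without replicate 2 of either population at 2 months or without either telogen library at 24 months, 1 without either telogen library at 2 months and 13 without replicate 1 of epidermis at 2 months. The 24-month count was 2 without either epidermis library at 2 months.

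Age was compared within each population. No gene of the 40 and 0 of 12470 genes passed limma's test in telogen bulge, epidermis or activated bulge, with 182, 103 and 232 of all genes and 0 of the 40 at an unadjusted p under 0.05. Here and in the further age tests below, that is fewer than this limit gives when no gene changes, so the test was strict. All groups shared 1 spread, although replicates correlated at 0.984 and 0.997 in telogen bulge and 0.919 to 0.959 elsewhere. An absence of calls therefore does not show an absence of age differences, least of all in telogen bulge. The median SE of a difference was 0.32 on the log2 scale.

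In activated bulge 39 of the 40 genes had a negative difference between 24 and 2 months on the log2(FPKM + 1) scale. The groups did not overlap for 26 of them, all lower at 24 months, against 9.66% of all genes lower and 7.32% higher, and the median difference was -0.28, against -0.02 over all genes. Helicase genes had a median of -0.38 with 8 of 10 separate, and clamp, loader and single-strand binding genes -0.16 with 2 of 5 separate. Mcm10, at 7.44 and 9.99 FPKM at 2 months against 5.55 and 5.96 at 24 months, had the smallest p, with -0.51 (SE 0.25, adjusted p = 1). Mcm4 was at 53.9 and 57.0 against 40.8 and 34.9 FPKM, with -0.54 (SE 0.30, adjusted p = 1), and Rrm2 had -0.50 (SE 0.37, adjusted p = 1). Their young and aged libraries were separate, yet no difference passed. The largest p were those of Cdc6 (-0.05, SE 0.27, adjusted p = 1) and Brca2 (0.03, SE 0.46, adjusted p = 1), whose groups overlapped. The gap to all genes rests in part on single libraries: the medians of the 40 and of all genes were -0.30 and 0.08 without replicate 1 and -0.32 and -0.14 without replicate 2 at 2 months, and -0.32 and -0.20 without replicate 1 and -0.25 and 0.13 without replicate 2 at 24 months. Fibroblast markers were highest in replicate 1 at each age, at 428 FPKM at 2 months and 32.6 at 24 months, and the medians without replicate 1 at both ages were -0.32 and -0.08.

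**Figure D3:**
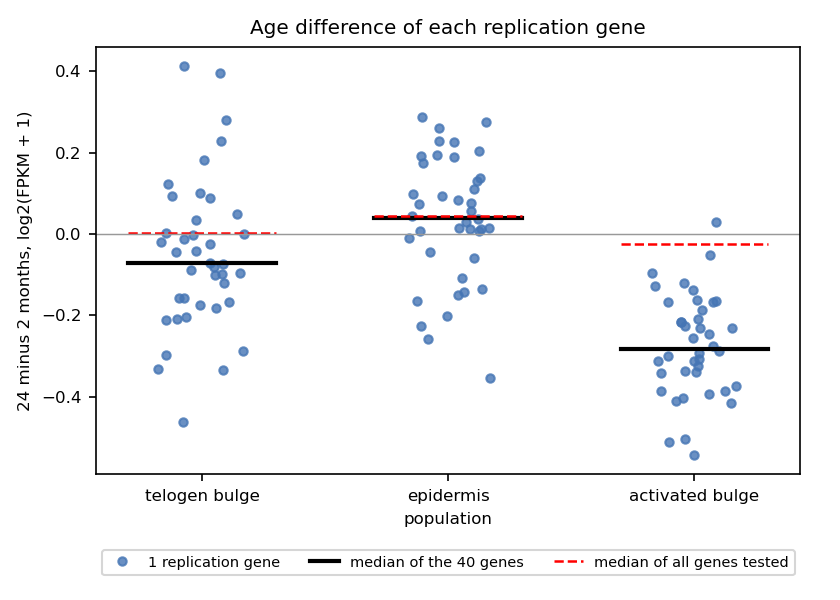
Difference between 24 and 2 months in log2(FPKM + 1), with 1 point for each of the 40 genes in each population (points are spread sideways at random), the median of the 40 as a black line and the median of all 12470 genes as a red dashed line. In activated bulge 39 points lie below 0 and the medians are -0.28 and -0.02, whereas in telogen bulge and epidermis points lie on both sides of 0.

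Telogen bulge showed no common direction with age. Of the 40 genes 12 were positive and 28 negative, with a median of -0.07, which was 0.02 without replicate 1 and -0.16 without replicate 2 at 2 months. Groups did not overlap for 7 genes higher and 13 lower at 24 months, against 26.8% and 27.3% of all genes. The 7 were Cdt1, E2f2, Pold1, Rfc4, Rfc5, Rpa2 and Lig1. E2f2 (0.39, SE 0.27), Ccne2 (-0.46, SE 0.33) and Prim1 (-0.33, SE 0.27) had the smallest p and Cdc6 and Pole (0.00 each) the largest, all with adjusted p = 1. Cdt1, Pold1 and Rpa2 were higher at 24 months in both resting libraries and lower in both activated ones. Epidermis had 28 positive and 12 negative genes, a median of 0.04 (-0.02 with quantile normalization and -0.13 with equal library totals) and 0 genes with separate groups, against 5.27% of all genes higher and 3.96% lower. The median was 0.42 without replicate 1 and -0.32 without replicate 2 of epidermis at 2 months, since replicate 2 was lower than replicate 1 for 33 of the 40 genes, by a median of -0.80 against -0.27 over all genes. Exo1 (-0.23, SE 0.23), Rrm2 (-0.35, SE 0.37) and Rfc3 (0.28, SE 0.31) had the smallest p there, and Prim1 and Gins1 (0.01 each) the largest.

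The mean of the 3 populations gave 0 of the 40 genes and 0 of all genes with an age difference, with 281 of all genes at an unadjusted p under 0.05. Mcm10 (-0.27, SE 0.15), Rrm2 (-0.39, SE 0.21) and Mcm4 (-0.28, SE 0.17) had the smallest p and E2f2 and Brca2 the largest, each with adjusted p = 1. Whether activation differed between the ages was tested directly, with 0 of the 40 and 0 of all genes called and 98 of all genes at an unadjusted p under 0.05. Differences were negative for 37 of the 40, with a median of -0.21 against -0.02 over all genes. E2f2 had the smallest p (-0.71, 95% interval -1.55 to 0.13), followed by Pold1 (-0.70, -1.75 to 0.35) and Cdt1 (-0.58, -1.67 to 0.50), and Ccne1 (-0.05) and Tyms (-0.03) the largest. At a median SE of 0.46, a difference in activation between ages of the size of these medians was not detectable.

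Other genes of replication and the cell cycle were set beside the 40, from lists chosen by function. Of all genes tested, 6.6% were called higher and 6.18% lower on activation at 2 months, and 4.11% and 3.91% at 24 months. In telogen bulge 33 to 36 of 43 replisome genes and 7 to 10 of 18 recombination genes reached 1 FPKM per library. So did 16 to 17 of 20 mitosis genes and 27 to 28 of 31 in the E2F and RB network. Genes under it there that entered the tests through other groups had calls partly set by the filter. Of 43 further replisome genes 14 were called higher and 0 lower on activation at 2 months, among them the fork protection genes Timeless (2.66, limma adjusted p = 0.000175) and Clspn (2.66) and the ubiquitin ligase adaptor Dtl (2.84). The list median was 0.60. Pole4, a small polymerase subunit, was at 82 and 43.3 FPKM in telogen and activated bulge (-0.90, adjusted p = 0.0627). Of 18 further recombination genes 12 were called higher, including the partners Fanci (2.39) and Fancd2 (2.26), which act in the repair of crosslinked DNA. Of 11 chromatin genes 4 were, the methylation maintenance pair Uhrf1 (2.72) and Dnmt1 (1.92), Hells (2.96) and Asf1b (2.42).

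Of 10 further deoxynucleotide genes 3 were called higher and 1 lower. Ung, which removes uracil from DNA, rose by 2.60 and deoxycytidine kinase (Dck) by 1.29. Tk2, the mitochondrial thymidine kinase, fell by 1.69 (adjusted p = 0.00816), from 19.5 ± 1.79 to 5.47 ± 1.82 FPKM, where the cytosolic enzyme of Tk1 rose. Of 31 genes of the E2F and RB network 10 were called higher and 1 lower. Cyclin A2 (Ccna2) rose by 3.39, the repressor E2f8 by 2.69 and the RB relative Rbl1 by 1.83, and the kinase inhibitor Cdkn1c fell by 2.28 at 2 months and 3.20 at 24 months. The 24-month counts of higher and lower genes were 14 and 0 of the replisome list, 11 and 0 of recombination, 4 and 0 of chromatin, 3 and 1 of deoxynucleotides and 7 and 1 of the E2F and RB network.

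Mitosis genes had larger median differences than replication genes in both comparisons with telogen bulge. All 20 of the list were called higher on activation at each age, with medians of 2.97 and 3.17, and all 20 were called lower in telogen bulge than in epidermis, with medians of -2.54 and -3.01. Of all genes, 6.6% and 4.11% were called higher on activation, and 7.15% and 7.74% lower in telogen bulge than in epidermis. Top2a, which untangles copied chromosomes, rose by 3.93, from 6.04 ± 3.96 to 99.2 ± 24.8 FPKM, and the mitotic kinase Cdk1 by 2.70. The mean log2(FPKM + 1) of the 20 mitosis genes minus that of the 40 replication genes was -0.77, -1.33, -1.42 and -1.32 in the telogen bulge libraries, -0.01, 0.62, 0.31 and 0.38 in epidermis and 0.21, 0.32, 0.40 and 0.24 in activated bulge. All 4 telogen libraries were below all 8 others in this measure. The highest telogen value was in replicate 1 at 2 months, which also held 39.2 FPKM of the 6 melanocyte markers, against 5.31 to 8.87 in the other 3. The part of those cells in it was not tested. With age in telogen bulge 0 of the 20 mitosis genes were called. All 20 had negative differences, with a median of -0.36, but their mean log2(FPKM + 1) was 2.17 in that replicate, 1.49 in replicate 2 at 2 months and 1.41 and 1.51 at 24 months, so replicate 2 lay between the aged libraries.

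**Figure D4:**
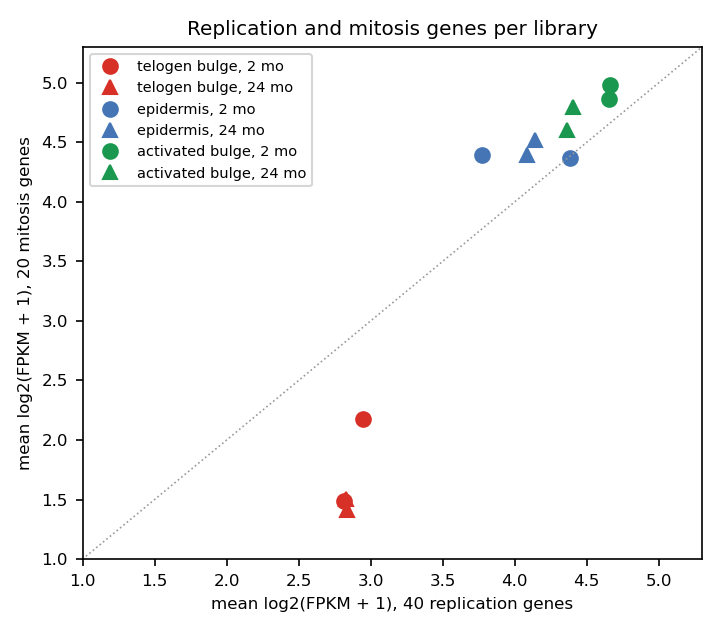
Mean log2(FPKM + 1) of the 20 mitosis genes against that of the 40 replication genes, with 1 point per library (colour for the population, circles for 2 months and triangles for 24 months) and a dotted line of equal values. The 4 telogen bulge points lie below the line, by 0.77 to 1.42, and 7 of the other 8 lie above it.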

How the data were processed

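Messenger RNA of sorted skin cells was sequenced, and the authors deposited 1 transcript table per library with FPKM in the attribute column. TopHat, Cufflinks and the mm9 genome are named in the submitters' processing notes, without versions. The deposited values were on an enlarged scale, 12505 to 18480 times the usual FPKM as estimated from the coverage and lengths of the transcripts. All 12 libraries were divided by 1 constant, 16647, so differences between libraries stayed as deposited. FPKM were summed over the transcripts of a gene symbol. Genes were tested at 1 FPKM or more in at least 2 of 12 libraries with a longest transcript of 300 nt or more. Krt5 and Krt14, listed at 0 beside values over 1000 FPKM, were left out, which gave 12470 genes.

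limma 3.58.1 in R 4.3.3 was run two-sided on log2(FPKM + 1), with 1 mean per group over all 12 libraries, an intensity trend, 1 shared spread (4.031 prior degrees of freedom) and Benjamini-Hochberg adjustment. A count test does not suit FPKM and was not run. The procedure was run on simulated data with most genes unchanged. Between 2 groups it recovered 3% to 12% of log2 changes of 1 and 73% to 86% of changes of 2. Fewer genes were changed in the simulation than were called between populations, which made its adjusted cut-off stricter. The recovered shares may therefore be too low for comparisons of populations. For age within a population these shares were 8% to 10% and 73% to 81%. For the mean of the 3 age differences they were 76% and 98%, and for the difference of activation between ages 0% and 36%. Genes given library by library are, for each role, those with the largest activated minus telogen difference at 2 months and those not called. The genes with the 3 smallest and 2 largest p in each comparison have full statistics, and up to 4 genes are named from each other list. Members, lists, tests and alternatives were chosen with earlier results of these data known. Nothing in the labels says that a replicate number marks shared animals or days. Correlations of same-numbered deviations were 0.18 to 0.79 among the epidermis and activated groups and -0.58 to 0.11 with telogen bulge, and the main test did not pair libraries by number. Between the 2 ages the correlation was 0.79 in activated bulge and 0.51 in epidermis. The replicate block used as an alternative had 1 effect for all populations. A block within each population was not fitted, so age under such pairing was not tested. The 2 libraries of wounded epidermis were not used. A few genes of the other lists are not reported here by name.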

Additional observations from a re-analysis of the deposited data

How the results depend on the processing

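The number of the 40 genes called in each comparison was recomputed with quantile normalization, equal library totals, no filter on low values, a pseudocount of 0.1, the transcript with the highest mean, no trend, the replicate block, without each library in turn and without replicate 2, or (chosen after seeing the data) replicate 1, of activated bulge at both ages. Among the genes with the 3 smallest and 2 largest p of each comparison no called difference changed sign, 31 values lost their call, 10 gained one and 58 uncalled values moved. Activated against telogen bulge at 24 months had 18 and 19 genes without replicates 2 and without replicates 1 of activated bulge, against 31. Activated bulge against epidermis at 2 months had 9 with equal totals, 2 with no filter and 0 without replicates 2 of activated bulge, against 4, and at 24 months 3 with quantile normalization and 4 with equal totals, against 0. The cause of these moves was not tested, other than that fewer libraries entered some fits. Leaving out 1 library gave 11 to 28 genes for telogen bulge against epidermis at 2 months and 15 to 30 at 24 months, 18 to 35 and 11 to 31 for activated against telogen bulge, 0 to 13 and 0 to 2 for activated bulge against epidermis, and 0 for age and for the difference of activation. A group left with 1 library is assumed to vary like the others. Equal totals moved the median of all genes from -0.07 to 0.28 for activation at 2 months and from -0.10 to 0.33 at 24 months, and the median of the 40 to 2.35 and 2.15. Counts per role, of signs and of groups that do not overlap were not recomputed. Same-numbered libraries deviated together among the epidermis and activated groups (correlations of 0.18 to 0.79) but not with telogen bulge (-0.58 to 0.11), and with the replicate block the counts were 30 and 30 for telogen bulge against epidermis, 36 and 32 for activation, 5 and 2 for activated bulge against epidermis and 0 for age.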
